A study of Mus musculus with 12 samples.

Results

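Cluster 9 of 28W spleen is 1 of 11 groups of cells that the authors defined in PD-1+CD44+CD8+ T cells sorted from the spleen of lupus-prone mice. Its members were the 256 cell barcodes to which the deposited assignments give the cluster number 9, of 6481 barcodes in that library and 20510 in the 3 libraries of the series. They made up 3.95% of the 28W spleen cells (exact binomial 95% interval 3.49 to 4.45). The cells came from NZB/W F1 hybrids, which acquire lupus-like kidney disease spontaneously as they grow older, and were profiled by single-cell RNA sequencing. No treatment is named for them. Besides 28W spleen, taken at 28 weeks, the series holds the spleen of 12-week mice (12W spleen) and the kidney of 28-week mice (28W kidney). Each group has 4 samples that are pooled in 1 table with no map from cells to samples. Their titles differ only in a number of the kind given to sequencing lanes, the labels do not say whether they are separate cell samples, and the number of mice is not stated. Every group is therefore 1 library without replicates, and no difference has a test. The group of the 28W spleen samples follows their titles, since their age field reads 12 weeks.

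Krüppel-like factor 2 (*Klf2*) is a zinc finger transcription factor of resting naive and memory T cells. It drives transcription of *S1pr1*, whose product lets T cells leave tissues, and T cell receptor signalling shuts it down. Cytotoxic CD8+ T cells kill with perforin and granzymes released from granules, and they secrete the chemokines *Ccl3*, *Ccl4* and *Ccl5*.

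The cluster held 436825 unique molecular identifiers (UMIs, each a captured transcript), or 1706 per cell. Cluster 2, the cytotoxic cluster it was mainly set against, had 1027 cells, 4745397 UMIs and 4621 UMIs per cell. The mean over the library was 4941 UMIs per cell, and the clusters with fewer UMIs per cell than cluster 9 were cluster 11 at 1288 and cluster 8 at 1020.1. Mitochondrial transcripts took 1.04% of UMIs in cluster 9, against 0.929% in cluster 2 and 6.64% in cluster 11. Levels are given as UMIs per 1000000 UMIs of the cluster (CPM), and 3 UMIs, taken as the limit that a count of 0 allows, correspond to 6.87 CPM in cluster 9 and 0.632 CPM in cluster 2. All intervals are central 95% limits that cover counting error only, and that of 0 UMIs in cluster 9 reaches 8.44 CPM. A CPM is a share of a cell's RNA, so the low UMIs per cell bear on every level below. Of 269 named genes with a UMI in cluster 9, 46 were highest there as CPM, and 2 of these 46, *Lmo1* and *Ppbp* (on 1 UMI), were highest there per cell too. Per cell 38 of the 46 were below cluster 2. Ranks below are ranks of CPM unless they are said to be per cell. Of the 256 barcodes, 4 also occur in another library.

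All 9 markers of the sort and of T cells were found in cluster 9 at a summed 5162 CPM, against 5272 CPM in cluster 2. *Cd3e* stood at 1605 CPM, *Cd8a* at 513 CPM and *Pdcd1*, the gene of PD-1, at 75.5 CPM (52.0 to 106), the highest *Pdcd1* share of the 11 clusters, with clusters 2, 8 and 11 at 57.3, 52.1 and 61.4 CPM inside its interval. Per cell *Pdcd1* ranked 7th at 0.129 UMIs, against 0.265 in cluster 2. Markers of most other cells were low. The neutrophil markers summed to 0 CPM, while cluster 8 reached 23708 CPM. Erythroid markers summed to 4.58 CPM (40824 in cluster 8), and platelet and CD4 T cell markers to the same 4.58 CPM. The B cell list summed to 194.6 CPM, in a range of 164 to 20591 CPM over the other clusters, with *Cd79a* and *Ms4a1* at 0. The myeloid list summed to 96.1 CPM (7.73 to 2588 in the other clusters), of which *Fcer1g* and *Tyrobp* gave 52.7 and 41.2 CPM, and *Lyz2*, *Csf1r*, *C1qa*, *C1qb* and *Itgam* were at 0. The NK cell list summed to 29.8 CPM, above the 7.21 CPM of the whole library. It ran from 0 to 33.7 CPM over the other clusters, with cluster 2 the highest. *Klra8*, *Gata2* and *Itga2* were at 0 in cluster 9. Of 6 markers listed for gamma delta and innate-like T cells, 4 are in the table. They summed to 34.3 CPM in cluster 9, all from *Trdc* on 15 UMIs, the highest of the 11 clusters. Cluster 3 was next at 27.9 CPM, and the whole library was at 12.6 CPM.

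The name of the cluster was checked against markers. Ranked by the log2 ratio over the other cells of the library, the leading 10 genes and segments were *Lmo1*, *Ccl5*, *Trdv2-2*, *Ccl3*, *Trdv1*, *Ccl4*, *Gzmk*, *Agpat2*, *Gzmm* and *Pglyrp1*. Of these 10, 5 were cytotoxic markers and 0 stood on another of the marker lists, so the cluster is called cytotoxic-like here. *Trdv2-2* and *Trdv1*, variable segments of the delta chain, stood on no list. The gamma delta list held no variable segments, so they could not count toward it, and they are described with the receptor segments. These ranks describe the cluster, because every gene took part in the clustering.

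The promoters of *Klf2* and *Gzmk* are shown because *Klf2* names the cluster and *Gzmk* is the granzyme gene with the highest level in it. Each is the stretch of 250 bases before the transcription start from RefSeq (GRCm38.p6), for *Klf2* at chr8:72318812-72319061 on the plus strand and for *Gzmk* at chr13:113180966-113181215 on the minus strand. The GENCODE gene span of *Gzmk*, given with its level, reaches beyond that RefSeq start, so this stretch lies inside the span and before the RefSeq start only. For *Klf2* the GENCODE span also begins before the RefSeq start. The end of the *Klf2* stretch, with the marked GGGTG 19 bases before the RefSeq start, therefore lies inside that span. Capitals mark matches on either strand to GGGCGG, the GC box known from Sp factors, to GGGTG, the motif known from Krüppel-like factors, or to GGTGTGA, a core element of T-box factors. In *Gzmk* the Krüppel-like motif and the T-box element overlap in 1 stretch of capitals.
Klf2: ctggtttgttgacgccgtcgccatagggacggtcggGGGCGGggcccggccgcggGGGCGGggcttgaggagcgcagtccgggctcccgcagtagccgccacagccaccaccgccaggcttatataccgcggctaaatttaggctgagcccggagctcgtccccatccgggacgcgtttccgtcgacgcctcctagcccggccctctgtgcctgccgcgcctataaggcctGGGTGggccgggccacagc
Gzmk: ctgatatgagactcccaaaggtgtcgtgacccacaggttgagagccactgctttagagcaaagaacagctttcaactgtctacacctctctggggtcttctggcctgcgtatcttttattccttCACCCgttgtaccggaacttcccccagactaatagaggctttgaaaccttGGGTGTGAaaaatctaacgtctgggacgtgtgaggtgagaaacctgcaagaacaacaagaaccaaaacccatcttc
The GC box was in 32.7% of all 32851 promoters of that table, the Krüppel-like motif in 52.0% and the T-box element in 3.33%. Among the 5179 promoters of genes tested over the other cells the shares were 59.2%, 56.05% and 2.65%. A match describes letters and not a bound site. For *Ccl5* and *S1pr1*, the other genes looked for, no promoter is shown.

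*Klf2* (GRCm38 chromosome 8, 72319033 to 72321656, plus strand) took a larger share of transcripts in cluster 9 than in any other cluster of the library. It stood at 2740.2 CPM (2587 to 2899.97) on 1197 UMIs in cluster 9. The other clusters ran from 371 CPM in cluster 6 to 1518 CPM in cluster 1, with 1377 CPM (1344 to 1411) in cluster 2. No counting interval of another cluster reached that of cluster 9. *Klf2* was 2.47-fold higher (2.33 to 2.61) than in the other cells and 1.99-fold higher (1.87 to 2.12) than in cluster 2. Per cell the order was different. Cluster 9 had 4.68 *Klf2* UMIs per cell, below 6.36 in cluster 2, 7.68 in cluster 5, 6.35 in cluster 1, 6.34 in cluster 4, 6.19 in cluster 3 and 6.02 in cluster 7. It was above the 4.53 of cluster 6 and the 2.12 or fewer of clusters 8, 10 and 11. The clusters nearest in UMIs per cell, 8 and 11, had *Klf2* at 1413 and 769 CPM. The cluster is thus *Klf2*-high as a share of its RNA and not per cell, and the part that the low RNA content has in this was not tested.

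**Figure D1:**
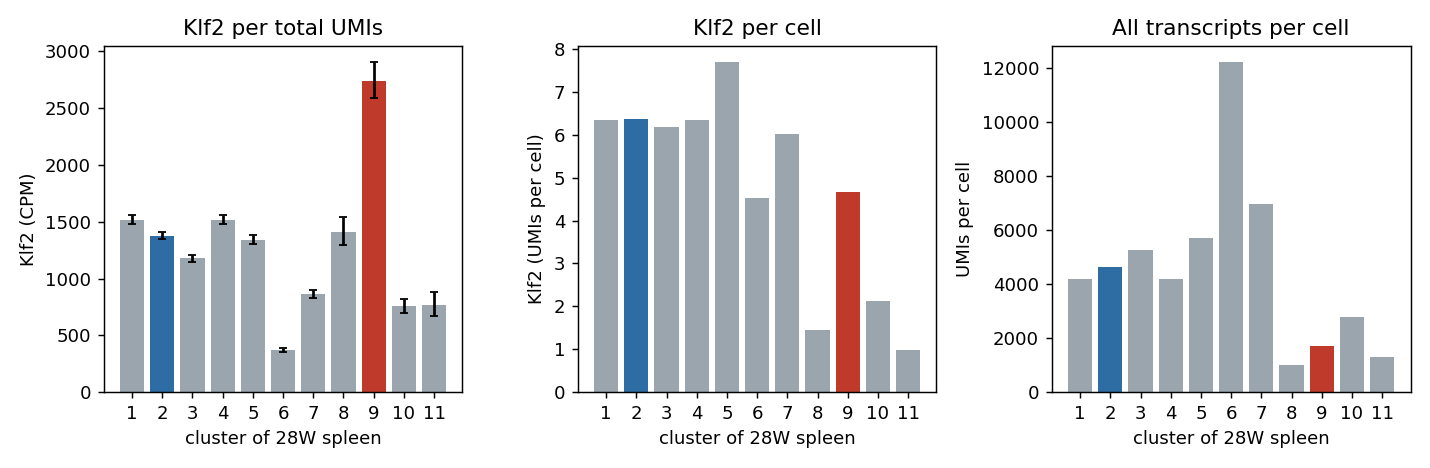
*Klf2* in the 11 clusters of 28W spleen as CPM with exact Poisson 95% intervals (left), as UMIs per cell (middle), and all UMIs per cell (right), with cluster 9 in red and cluster 2 in blue. Cluster 9 is highest at 2740.2 CPM but has 4.68 *Klf2* UMIs per cell against 6.36 in cluster 2, at 1706 UMIs per cell in all.

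The other genes of the *Klf2* and egress list did not follow *Klf2*. Of 10 listed genes, 9 passed the filter of a mean of 20 CPM over both groups. Over the other cells, the 1 of the 9 at least 2-fold higher was *Klf2* itself, the gene that names the cluster, and 0 were at least 2-fold lower. Of 5147 tested genes 1.01% and 1.9% were. The median log2 ratio of the 9 genes, *Klf2* included, was 0.03 (pseudocount of 5 CPM), against 0.14 over all genes tested. Over cluster 2 the median was 0.28, against 0.09 over all 5095 genes tested, and the 1 gene past 2-fold was *Ramp1*, a subunit of the receptor for the neuropeptide CGRP. *S1pr1*, the egress receptor, stood at 137 CPM (105 to 177) in cluster 9 and 113 CPM in cluster 2, with 36.3 to 199 CPM over the other clusters. *S1pr4* stood at 169 CPM, the highest of the 11 clusters, with 155 CPM in cluster 11 and 152 CPM in cluster 2 inside its interval (133 to 213). The level of *S1pr5*, a receptor of effector and NK cells, was 13.7 CPM and rests on 6 UMIs. *Ccr7*, a chemokine receptor that guides cells to lymph nodes, stood at 153 CPM (119 to 195) in cluster 9, above cluster 2 at 92.9 CPM, its lowest cluster, and with the other cells at 181 CPM inside its interval. *Samhd1*, a nucleotide hydrolase, was at 192 CPM in cluster 9 and 265 CPM in cluster 2.

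The 5 genes whose levels were most like *Klf2* over the 11 clusters, of 2645 genes with a mean of at least 50 CPM, were *Gm45552* (Pearson r 0.93), *Ctdsp1* (0.91), *Rabac1* (0.90), *Txnip* (0.89) and *Tprgl* (0.88). The 11 points share 1 library and differ in depth, so r is a description. Without cluster 9 their r ran from 0.84 to 0.92. *Gm45552* is an antisense gene (chromosome 7, 45121917 to 45124144) whose reads could be confused with those of an overlapping gene if strand was not used. It stood at 1786 CPM in cluster 9 and at 888 CPM in cluster 2, 2.01-fold apart, with a highest level of 936 CPM in any other cluster. *Txnip*, an inhibitor of thioredoxin and of glucose uptake, was at 444 CPM in cluster 9, in a range of 98.2 to 420 CPM over the other clusters.

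Cytotoxic genes were high in cluster 9 against the library and close to cluster 2. Of 15 listed genes, all of which passed the filter, 7 were at least 2-fold higher than in the other cells and 0 were at least 2-fold lower, beside 1.01% and 1.9% of all genes. Their median log2 ratio was 0.90 over the other cells. Over cluster 2 the median was -0.03, with 0 genes at least 2-fold higher and 1 at least 2-fold lower, where 0.51% and 0.844% of all genes were. Cluster 9 had the highest level of 5 of the 15 genes and ranked first or second for 9, and cluster 2 was highest for 4. *Ccl5* (chromosome 11, 83525778 to 83530518) stood at 18451 CPM (18051 to 18859) on 8060 UMIs in cluster 9, at 12039.7 CPM (11941 to 12139) in cluster 2 and at 637 to 5054 CPM in the remaining clusters. It was 1.53-fold higher (1.497 to 1.569) than in cluster 2, whereas per cell it was at 31.5 UMIs against 55.6.

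The granzymes split. *Gzmk* (chromosome 13, 113171608 to 113225908) stood at 401 CPM (343 to 465) in cluster 9, 360 CPM (343 to 377) in cluster 2 and 444 CPM in cluster 11, and at 163 CPM or less in the rest. These 3 clusters overlap within counting error. *Gzmm* was at 38.9 CPM (22.7 to 62.3), against 22.8 CPM in cluster 2. *Gzma* was at 119 CPM (88.9 to 156), against 137 CPM. *Gzmb*, a granzyme of fully armed killer cells, was at 41.2 CPM (24.4 to 65.1) on 18 UMIs, against 96.3 CPM (87.7 to 106) in cluster 2, a ratio of 0.428 (0.251 to 0.684). The pore-forming *Prf1* stood at 98.4 CPM (71.2 to 133) in cluster 9 and 89.6 CPM in cluster 2. *Nkg7*, a granule membrane protein, was level between them at 1646 and 1625 CPM.

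*Ccl3* was at 77.8 CPM in cluster 9 and 70.0 CPM in cluster 2, and *Ccl4* at 316 and 322 CPM. *Ifng*, the gene of interferon gamma, was at 64.1 CPM (42.6 to 92.6), below 116 CPM in cluster 2 and level with the 63.5 CPM of the other cells. *Srgn*, the granule proteoglycan, was at 453 CPM and ranked 9th of the 11 clusters, with 716 CPM in cluster 2. *Fasl*, the death ligand, was at 41.2 CPM and 49.5 CPM. *Ctsw*, a cathepsin of cytotoxic cells, was at 375 CPM (320.2 to 437) and 500.3 CPM. Among the 15 genes, the interval in cluster 9 lay below the level of cluster 2 for *Gzmb*, *Ifng*, *Srgn* and *Ctsw* and above it for *Ccl5*.

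**Figure D2:**
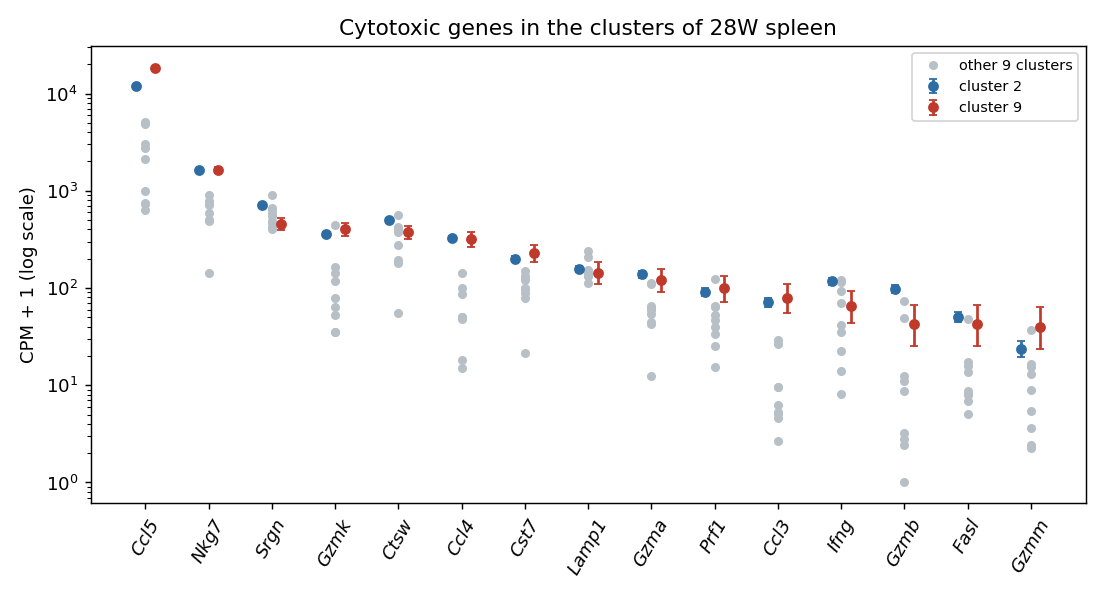
The 15 cytotoxic genes (horizontal axis) in cluster 9 (red), cluster 2 (blue) and the other 9 clusters (grey) of 28W spleen, as CPM + 1 on a log scale with exact Poisson 95% intervals for clusters 9 and 2. Clusters 9 and 2 lie together near the top for most genes, with *Ccl5* at 18451 against 12039.7 CPM and *Gzmb* at 41.2 against 96.3 CPM.

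NK receptor genes, which cytotoxic CD8+ T cells share with NK cells, were few in UMIs. Of 15 listed genes 13 are in the table and 6 passed the filter. Of those 6, 2 were at least 2-fold higher than in the other cells and 0 lower, beside 1.01% and 1.9% of all genes, and the median was 0.54. Over cluster 2 the median was 0.07, with 0 at least 2-fold higher and 1 lower, beside 0.51% and 0.844%. *Klrc1*, an inhibitory receptor of the NKG2 family, stood at 73.3 CPM in cluster 9 and 74.2 CPM in cluster 2. *Klrk1*, the activating receptor NKG2D, was at 48.1 CPM (29.8 to 73.5), against 101 CPM in cluster 2. *Klrd1*, the partner of the NKG2 receptors, was at 153 and 133 CPM. *Ncr1*, *Klre1* and *Klrg1* ranked first of the 11 clusters at 20.6, 16.0 and 11.4 CPM, on 9, 7 and 5 UMIs.

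Of 10 listed chemokine receptors, which guide T cells to tissues, 4 passed the filter. These 4 lay above the median of all genes over the other cells, and 1 was at least 2-fold higher, beside 1.01% of all genes. The list median was 0.80, and 0.35 over all 10 without the filter. *Cxcr6*, which binds *Cxcl16*, stood at 128 CPM (96.8 to 166) in cluster 9 and at 103 CPM in cluster 2, its next highest cluster. *Cxcr3* was at 243 CPM and 317 CPM. *Cxcr4* was at 54.9 CPM (35.2 to 81.7), against 27.2 CPM in cluster 2. *Cx3cr1*, a marker of terminal effector cells, had 6 UMIs.

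The S100, annexin and cytoskeleton list, genes of motile effector and memory cells, had a median of 0.62 over the other cells on 15 tested genes and of -0.03 over cluster 2. *Emp3* was past 2-fold over the other cells, at 902 CPM against 443 CPM, and ranked first of the 11 clusters. *S100a10*, *S100a11*, *S100a13*, *Anxa2* and *Tagln2* also ranked first. *S100a4*, a calcium-binding protein of effector memory cells, went the other way against cluster 2. It stood at 96.1 CPM (69.3 to 130) in cluster 9 and at 292 CPM in cluster 2, a ratio of 0.329 (0.236 to 0.447). *Lgals1*, the gene of galectin-1, was at 533 CPM (467 to 606) in cluster 9 and at 1001 CPM in cluster 2. Both genes were highest in cluster 2, so cluster 9 shares with it most, and not all, of this list. Integrins and adhesion genes had a median of 0.27 over the other cells and -0.15 over cluster 2, with 0 of 12 past 2-fold in either comparison. *Itgb1*, the gene of CD29, was at 387 CPM (331 to 450) in cluster 9 and 603 CPM in cluster 2.

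Naive and memory genes were spread. Over the other cells 12 of 14 listed genes passed the filter with a median of -0.18. Of these, 0 were at least 2-fold higher and 1, *Dapl1*, at least 2-fold lower, beside 1.01% and 1.9% of all genes. Over cluster 2, 11 passed with a median of 0.22 and 0 past 2-fold in either direction. *Lef1*, a transcription factor of naive and memory cells, stood at 126 CPM (94.9 to 164) in cluster 9, 74.6 CPM in cluster 2 and 174 CPM in the other cells. *Satb1*, a chromatin organiser, had the same order at 50.4, 29.1 and 84.9 CPM. *Tcf7*, which maintains memory and stem-like cells, was at 201, 164 and 207 CPM, and *Il7r* at 401, 454 and 347 CPM. Of the genes named here, *Lef1* and *Satb1* had counting intervals above the level in cluster 2 and below that in the other cells. *Dapl1*, a gene of naive and memory CD8+ T cells, was at 124 CPM, below both cluster 2 at 203 CPM and the other cells at 265 CPM.

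Effector transcription factors had a median of 0.35 over the other cells on 11 of 14 listed genes, and of 0.07 over cluster 2. Over the other cells 1 was at least 2-fold higher, beside 1.01% of all genes, and 0 were past 2-fold over cluster 2. *Hopx*, *Runx3* and *Id2* stood at 213, 229 and 224 CPM, against 120 to 134 CPM in the other cells and 201, 178 and 254 CPM in cluster 2. *Bhlhe40* was the gene past 2-fold, at 50.4 CPM against 20.51 CPM. *Tbx21*, the gene of T-bet, was at 38.9 CPM (22.7 to 62.3), against 76.3 CPM in cluster 2. *Eomes* and *Tox* were at 80.1 and 61.8 CPM, with cluster 2 at 75.9 and 81.6 CPM inside their intervals.

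Inhibitory receptors were low in UMIs. Over the other cells 5 of 11 listed genes passed the filter, with 2 at least 2-fold higher, beside 1.01% of all genes. These 2 were *Pdcd1* at 75.5 against 34.2 CPM and *Tigit* at 64.1 against 25.7 CPM. Over cluster 2, 6 passed and 0 were past 2-fold. *Lag3* was at 137 CPM in cluster 9 and 145 CPM in cluster 2. *Ctla4* was at 52.7 CPM (33.4 to 79.0), against 96.1 CPM in the other cells, and *Havcr2* had 1 UMI.

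Genes of recent activation lay mostly below the median of all genes, 8 of 9 over the other cells and 5 of 7 over cluster 2. Over the other cells 9 of 18 listed genes passed the filter with a median of -0.40, 0 at least 2-fold higher and 3 at least 2-fold lower, beside 1.01% and 1.9% of all genes. Those 3 were *Tnfrsf9*, the gene of 4-1BB, on 2 UMIs, the chemokine gene *Xcl1* at 57.2 against 165 CPM, and *Myc* at 32.0 against 80.0 CPM, its lowest level of the 11 clusters. All 3 were highest per cell in cluster 6, which is among the other cells. As CPM cluster 9 ranked 9th for *Tnfrsf9* and 6th for *Xcl1*. Over cluster 2 the median was -0.32 on 7 genes with 0 past 2-fold. *Cd69*, an early activation receptor that retains cells in tissue, was at 114 CPM (85.0 to 151) in cluster 9, 185 CPM in cluster 2 and 219 CPM in the other cells. Tissue residency genes, of which 4 of 8 passed, had a median of -0.23 over the other cells and -0.36 over cluster 2.

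Among AP-1 and stress genes all 15 passed, with medians of 0.22 and 0.26 over the other cells and cluster 2. Over the other cells 1 gene was at least 2-fold higher, beside 1.01% of all genes, and 0 were past 2-fold over cluster 2. That gene was *Jund*, an AP-1 subunit, which stood at 1463 CPM (1352 to 1581) in cluster 9 and 816 CPM in cluster 2, while per cell it ranked 8th at 2.496 UMIs, against 3.77 in cluster 2. *Junb* was at 1532 CPM (1418 to 1652), against 1013 CPM in cluster 2, with cluster 11 as high. *Ier2* was at 559 CPM, against 371 CPM in cluster 2 and 404 CPM in cluster 11, the next highest. *Fos* and *Jun* were at 540 and 387 CPM, and at 449 and 323 CPM in cluster 2. *Btg2* and *Dusp2*, brakes on proliferation and on MAP kinase, were lower than in cluster 2, at 139.6 and 197 CPM against 282 and 302 CPM. The list was thus mixed.

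Other signalling lists held 0 genes past 2-fold. NF-kB genes had medians of -0.26 and -0.11 on 7 genes, interferon-stimulated genes -0.07 and -0.11 on 16, cytokine receptors 0.20 on 9 and 0.07 on 10, and survival and death genes 0.24 and -0.01 on 8. In both comparisons 6 of the 7 NF-kB genes and 13 of the 16 interferon-stimulated genes lay below the median of all genes. *Isg15* was at 172 CPM in cluster 9 and 162 CPM in cluster 2. *Il2rg*, the common gamma chain, was at 929 and 758 CPM.

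Proliferation genes lay mostly below the median of all genes over the other cells, 10 of 11, and the few that passed the filter over cluster 2 lay above it, 4 of 4. Over the other cells 11 of 12 passed the filter with a median of -0.79, 0 at least 2-fold higher and 5 at least 2-fold lower (1.01% and 1.9% of all genes). *Pclaf* was the furthest at 6.87 against 86.0 CPM. The other cells include cluster 6, where *Pclaf* was highest per cell at 4.91 UMIs. As CPM among the 11 clusters, cluster 9 ranked 2nd for *Stmn1* and *Tubb5*, 4th for *Hmgb2*, 5th for *Pclaf* and 10th for *Top2a*. Over cluster 2, 4 passed with a median of 0.55 and 1 was at least 2-fold higher (0.51% of all genes). *Stmn1*, which destabilises microtubules, stood at 105 CPM (77.1 to 140) on 46 UMIs in cluster 9 and at 25.5 CPM in cluster 2. With receptor segments ranked apart, its log2 ratio over cluster 2 (1.85) was the highest of the genes tested. *Cenpa*, the centromeric histone, was the next gene at 75.5 CPM (52.0 to 106), against 19.2 CPM. Both were highest in cluster 6, at 569 and 177 CPM. The delta chain segment *Trdv2-2* was further above cluster 2 than *Stmn1*, at 66.4 against 7.38 CPM. *Mki67* had 5 UMIs and *Top2a* 4, too few to compare.

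**Figure D3:**
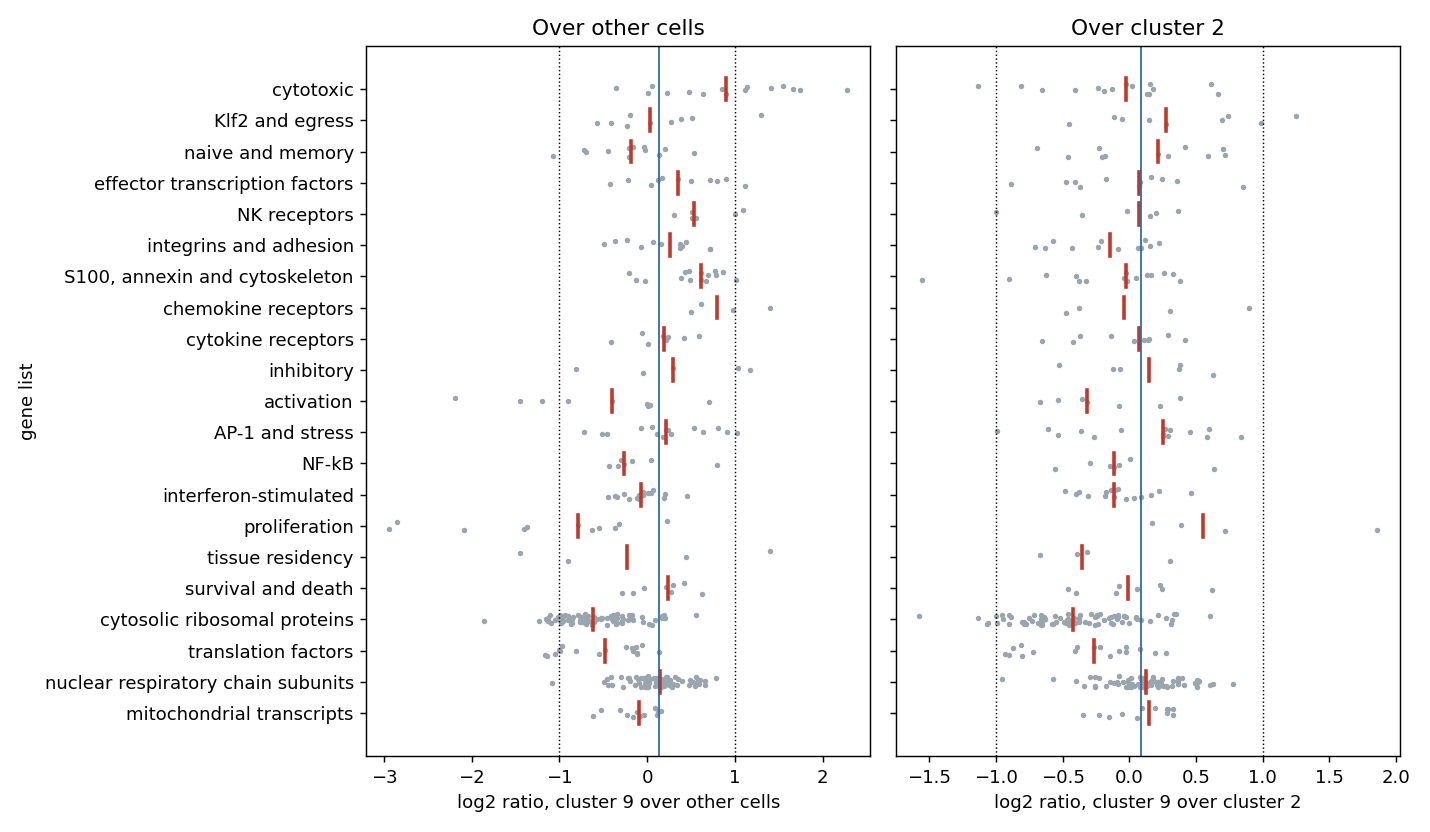
Log2 ratios of cluster 9 over the other cells (left) and over cluster 2 (right) for each gene list (vertical axis), with a grey point per tested gene, a red bar at the list median, a blue line at the median of all genes tested and dotted lines at 2-fold. The cytotoxic median is 0.90 over the other cells and -0.03 over cluster 2, and the ribosomal protein median is below the blue line in both panels.

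Genes of the translation machinery were low in cluster 9 in both comparisons. They were listed after their values were seen. Of 82 tested genes of cytosolic ribosomal proteins, 76 lay below the median of all genes over the other cells and 74 over cluster 2, with list medians of -0.62 and -0.42. At least 2-fold lower were 11 over the other cells and 5 over cluster 2, beside 1.9% and 0.844% of all genes, and 0 were at least 2-fold higher. The 5 were *Rps12*, *Rps27rt*, *Rpl12*, *Rps27* and *Rplp1*. Ribosomal protein genes together took 25.1% of UMIs in cluster 9, against 31.1% in cluster 2, 23.7% in cluster 8 and 10.7% in cluster 11, and 29.0% to 40.9% in the other 7 clusters. The 3 clusters with the fewest UMIs per cell are thus the 3 with the lowest share, and the part of RNA content in the difference was not tested. Ribosomal protein genes have many near-identical processed pseudogenes, so the split of their reads is uncertain.

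*Rps12* (chromosome 10, 23785183 to 23787275) was the lowest gene over cluster 2, with receptor segments ranked apart. It stood at 806 CPM (724 to 895) in cluster 9, at 1047 CPM in cluster 11, at 1460 CPM in cluster 8 and at 2416 to 3593 CPM in the other clusters, cluster 2 included. *Rpl6*, *Rpl24* and *Rpl37* went the other way and were above cluster 2, with log2 ratios of 0.35, 0.33 and 0.32. The 17 translation factors had medians of -0.48 and -0.27, with 4 and 0 at least 2-fold lower, beside 1.9% and 0.844% of all genes. *Eef1a1*, which brings aminoacyl-tRNA to the ribosome, stood at 4940.2 CPM (4734 to 5153), against 9053 CPM in cluster 2, and *Eef2*, the translocase, at 1005 against 1763 CPM. *Rack1*, a scaffold on the ribosome, stood at 575 against 1099 CPM. *Naca* was at 1859 against 1536 CPM and *Pabpc1* at 1293 against 1226 CPM. By contrast, nuclear respiratory chain subunits had medians of 0.15 and 0.12 on 70 genes, and mitochondrial transcripts -0.09 and 0.15 on 12.

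**Figure D4:**
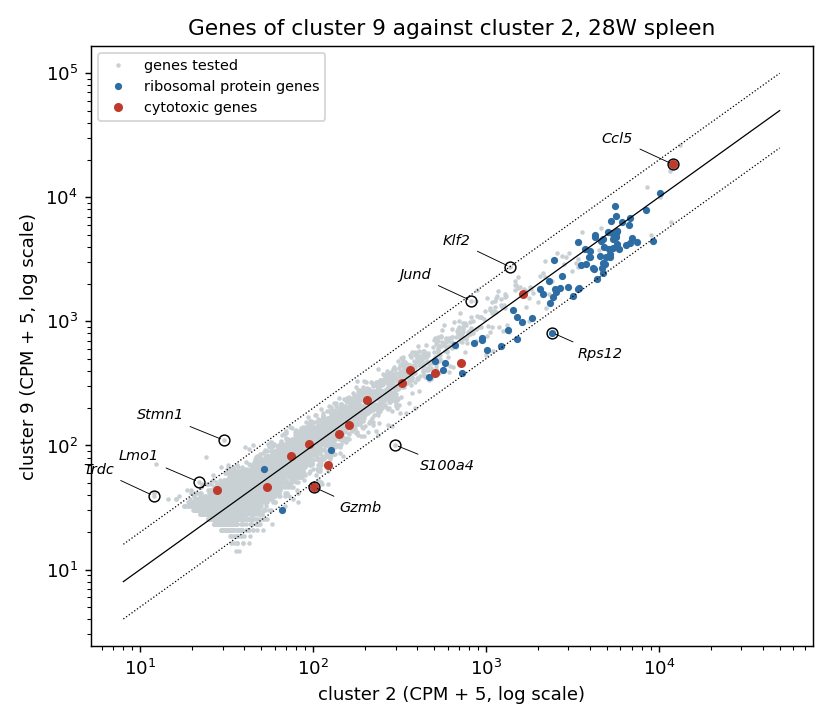
Each tested gene by its level in cluster 2 (horizontal) and cluster 9 (vertical), both as CPM + 5 on log scales, with the line of equal levels (solid) and 2-fold lines (dotted), ribosomal protein genes in blue and cytotoxic genes in red. Blue points lie mostly below the solid line, *Rps12* is furthest below it among abundant genes (806 against 2416 CPM), and *Klf2* lies near the upper 2-fold line.

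Over all genes, 52 of 5147 were at least 2-fold higher in cluster 9 than in the other cells and 98 at least 2-fold lower (1.01% and 1.9%). Against cluster 2 the counts were 26 and 43 of 5095 (0.51% and 0.844%). With totals that leave out receptor, ribosomal protein and mitochondrial genes the counts over the other cells were 29 and 172, and over cluster 2 they were 20 and 83. With the median ratio set to 0 they were 28 and 141, and 18 and 63. Counts are the limit here. Only 11 of the 52 and 21 of the 98 rested on at least 50 UMIs in cluster 9, and 2 of the 26 and 4 of the 43 over cluster 2. *Lmo1*, a LIM-only transcriptional cofactor (chromosome 7, 109138572 to 109175207), had the highest ratio over the other cells. It stood at 45.8 CPM (28.0 to 70.7) on 20 UMIs in cluster 9, at 16.9 CPM (13.4 to 20.98) in cluster 2 and at 0 to 4.34 CPM in the remaining clusters. Clusters 9 and 2 are thus the *Lmo1* clusters of this spleen, and per cell they held 0.0781 and 0.0779 UMIs. Further genes among the 15 highest over the other cells were *Agpat2* (38.9 against 11.1 CPM), *Pglyrp1* (98.4 against 34.1), *Zfp524* (32.0 against 9.28), *Gpr180* (38.9 against 12.0), *Smpd5* (32.0 against 9.85) and *Nbeal2* (68.7 against 25.3). Of these, *Pglyrp1* and *Nbeal2* had over 20 UMIs.

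The 10 lowest over the other cells were genes of other cell types or of cycling cells. *Hbb-bs*, *Hba-a1* and *Hbb-bt* of red cells, *S100a8*, *S100a9* and *Ngp* of neutrophils and *Cd74*, *Jchain* and *H2-Aa* of B lineage and antigen-presenting cells had 0 to 7 UMIs in cluster 9. Their levels in the other cells were set by clusters 8 and 10, where each is highest. The histone gene *Hist1h2ap* was at 59.5 CPM, against 2379 CPM in cluster 6.

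With receptor segments ranked apart, the highest genes over cluster 2 besides *Stmn1* and *Cenpa* were *Trdc*, *Tec*, *Ramp1*, *Agpat2*, *Coa4*, *Lmo1*, *Zfp524*, *Dnaaf5*, *Fgf13* and *Tspan32*. *Tec*, a kinase of T cell receptor signalling, was at 32.0 CPM (17.5 to 53.8), against 9.48 CPM, its lowest cluster. *Ramp1* stood at 91.6 CPM (65.4 to 125) on 40 UMIs, against 35.6 CPM in cluster 2 and up to 132 CPM in cluster 3. *Tspan32*, a tetraspanin, was at 96.1 CPM (69.3 to 130) on 42 UMIs, against 39.8 CPM, its lowest cluster. *Fgf13* was at 61.8 CPM (40.7 to 89.9), against 24.4 CPM, and was highest in cluster 9.

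Ranked in the same way, the lowest genes over cluster 2 besides *Rps12* and *S100a4* were *Piezo1*, *Adamts10*, *Mindy3*, *Gm26825*, *Baz1b*, *Nup50*, *Ipo7*, *Arhgap26*, *Plac8* and *Ppp2r5e*. All but *Plac8* were at their lowest of the 11 clusters in cluster 9. *Gm26825*, a long intergenic RNA, was at 43.5 CPM (26.2 to 67.9), against 117 CPM, and *Piezo1*, a mechanosensitive channel, at 9.16 CPM on 4 UMIs, against 32.5 CPM. Of these 10 genes the count in cluster 9 was 19 UMIs at most. *Tmsb4x*, the gene of the actin-binding thymosin beta 4, was looked up after values were seen and stood at 6316 CPM, against 11781 CPM in cluster 2. *Gm42418*, also looked up afterwards, is a locus that overlaps ribosomal RNA sequence. It stood at 26622 CPM in cluster 9 and 13292 CPM in cluster 2, with 60212 CPM in cluster 8 and 10058 CPM in cluster 6, and its part in the other ratios was not tested. Transcript length was set beside the ratios. Across the 5091 genes with a length, Pearson r of the log2 ratio over cluster 2 with log2 length was -0.12. It was -0.19 for cluster 8 over cluster 2 and 0.57 for cluster 11 over cluster 2 (across genes, which are not independent replicates).

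T cell receptor segments were described from transcript counts, since paired clonotypes were not analysed here. The effective number of *Trbv* segments (the exponential of the entropy of their UMI shares) was 7.82 in cluster 9 on 945 UMIs, the lowest of the 11 clusters. The others ran from 9.44 in cluster 7 to 11.3 in cluster 10, and clusters 8 and 11, with 672 and 729 *Trbv* UMIs, had 9.99 and 9.57. *Trbv13-1* made up 27.0% of *Trbv* UMIs in cluster 9 (24.2 to 29.9), against 25.8% in cluster 2 and 21.8% in the other cells. *Trbv1* made up 18.8% (16.4 to 21.5), against 11.5% (10.9 to 12.2) in cluster 2 and 13.01% in the other cells. *Trbv13-2* made up 17.6%, against 15.5% and 19.0%. Among *Trav* segments, *Trav3-3* made up 17.1% (13.3 to 21.5) of 345 UMIs, against 10.2% in cluster 2 and 9.85% in the other cells. The effective number of *Trav* segments was 31.6, against 36.6 and 37.7 in clusters 8 and 11 and 19.4 in cluster 10, which had 98 UMIs. Several UMIs come from each cell and members of a clone share a segment, so the intervals are too narrow for shares of cells.

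Gamma delta T cells use the delta chain in place of the alpha chain. Its summed *Trdv* segments and its constant region had their highest share of UMIs in cluster 9, though not their highest level per cell. *Trdv* segments summed to 121 CPM (90.9 to 159) on 53 UMIs, against 20.7 CPM (16.8 to 25.2) in cluster 2, and 61.9 CPM (55.1 to 69.4) in cluster 3, the next highest. No interval of another cluster overlapped. *Trdc* was at 34.3 CPM (19.2 to 56.6) on 15 UMIs, against 6.95 CPM in cluster 2 and 27.9 CPM in cluster 3, which lies inside its interval. Per cell *Trdv* segments were at 0.207 UMIs in cluster 9, 0.326 in cluster 3 and 0.0954 in cluster 2, and *Trdc* was at 0.0586 UMIs, against 0.187 in cluster 7. *Trdv2-2*, *Trdv1* and *Trdv5* gave 29, 16 and 8 of the 53 UMIs. *Trdv5* was not highest in cluster 9, at 18.3 CPM (7.91 to 36.1) against 22.7 CPM in cluster 3. Gamma chain segments and constant regions summed to 137 CPM on 60 UMIs in cluster 9 and to 126 CPM in cluster 2. Of the other markers fixed for gamma delta and innate-like T cells, *Zbtb16*, *Il17a* and *Sox13* were at 0, and *Trac*, the alpha constant gene, was at 252 CPM, against 271 CPM in cluster 2.

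**Figure D5:**
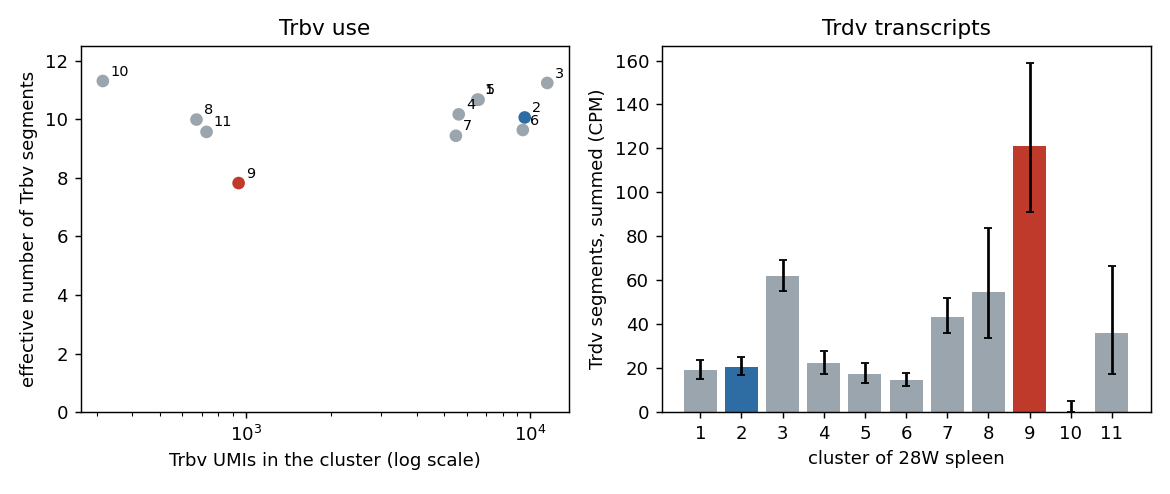
Effective number of *Trbv* segments against *Trbv* UMIs for the 11 clusters of 28W spleen (left, log horizontal axis) and the summed level of *Trdv* segments by cluster in CPM with exact Poisson 95% intervals (right), with cluster 9 in red and cluster 2 in blue. Cluster 9 is lowest on the left at 7.82 and highest on the right at 121 CPM.

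Cluster numbers are not matched between libraries, so profiles were compared. Each cluster's log2 ratios over the other cells of its own library were correlated with those of cluster 9 across 4723 genes. Among the 22 clusters of the other libraries the highest Pearson r was 0.43, for clusters 5 and 2 of 12W spleen, followed by 0.42 and 0.41 for clusters 4 and 1 of 28W kidney. None of the other libraries held a cluster with the *Klf2* share of cluster 9. Its 2740.2 CPM compares with a highest level of 1405 CPM (1357 to 1455) in cluster 3 of 12W spleen and of 1309 CPM (1267 to 1352) in cluster 8 of 28W kidney. Per cell its 4.68 *Klf2* UMIs were below 7.20 in cluster 10 of 12W spleen and 6.74 in cluster 8 of 28W kidney. *Ccl5* reached 8055 CPM in cluster 2 of 12W spleen and 15923 CPM in cluster 6 of 28W kidney, below the 18451 CPM of cluster 9, while per cell it reached 60.3 UMIs in cluster 1 of kidney against 31.5. *Gzmk* reached 159 CPM in 12W spleen and 902 CPM in kidney, and *Lmo1* at most 3.35 and 30.8 CPM. *Pdcd1* was at most 69.7 CPM in 12W spleen and 229 CPM in kidney, against 75.5 CPM in cluster 9. The tables were normalized separately, age and organ differ between libraries, and each is 1 library, so these levels stand side by side without a test.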

How the data were processed

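PD-1+CD44+CD8+ T cells were sorted and profiled with 10x Genomics 5′ v2 chemistry per the labels, which list Cell Ranger 2.1.1 and R 3.6.1 with GRCm38; cell filters are not given in the sources used here. The deposited files of a library give the cluster of every barcode and, per gene and cluster, a mean count signal, which the authors scaled to the same total in all clusters. They also deposited log2 fold changes and adjusted p-values of each cluster over the other cells, which were not used. Each column of mean counts held whole multiples of 1 step, within 0.001 for 100% of values, and division by that step gave the UMIs of the cluster. UMIs were scaled to 1000000 per cluster (CPM).

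Log2 ratios used a pseudocount of 5 CPM, which understates the differences of low genes, among genes with a mean of at least 20 CPM over both groups. "Past 2-fold" refers to this scale, while fold values with limits are plain ratios of CPM. Intervals were exact Poisson limits for CPM, exact binomial limits for shares and exact conditional binomial limits for ratios, at 95%, and cover counting error only. With 1 library per group no test was run. The 28W spleen library held 32023473 UMIs. No doublet caller was run, because only cluster means were at hand. The members and gene lists were chosen with earlier results of these data known. Named genes were those listed, the 15 highest and 10 lowest ratios over the other cells, the 12 highest and 12 lowest over cluster 2, with receptor segments ranked apart, the 3 most used *Trbv* and *Trav* segments and the 5 genes most like *Klf2*. The ribosomal, translation, respiratory and mitochondrial lists, the delta and gamma chain genes and other genes said to be looked up were added after values were seen. Coordinates were those of GENCODE M21 (GRCm38), which held 16168 of the 16194 identifiers. Ranks per cell were added after values were seen. Recovery and ratios were tested on simulated data. Python 3.11.15, numpy 2.4.6, pandas 2.3.3 and scipy 1.17.1 were used. Some listed genes are not reported here. Alternatives were other pseudocounts, filters, totals, centring and reference cells.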

Additional observations from a re-analysis of the deposited data

How the results depend on the processing

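No paired analysis was possible because the 4 numbered samples of each group are pooled in 1 table, and for the same reason none of them could be left out. Counts of genes past 2-fold depended on most settings, though leaving clusters 8, 10 and 11 out of the reference kept them at 54 and 76. Over the other cells, 52 genes higher and 98 lower became 88 higher with a pseudocount of 1 CPM, and 14 and 55 with 20 CPM. They became 129 and 281 with a minimum mean of 5 CPM, 17 and 46 with 50 CPM, 9 and 19 with 200 CPM and 133 and 419 with no filter. Totals without receptor, ribosomal protein and mitochondrial genes gave 29 and 172, setting the median ratio to 0 gave 28 and 141, and the median over the other clusters as reference gave 84 and 32.

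Over cluster 2, 26 higher and 43 lower became 49 and 66 with a pseudocount of 1 CPM, and 7 and 6 with 20 CPM. They became 106 and 172 with a minimum of 5 CPM, 6 and 13 with 50 CPM, 2 and 4 with 200 CPM, 118 and 279 with no filter, and 83 lower with the reduced totals.

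*Klf2* over the other cells (1.30) was 1.11 with the reduced totals, 1.16 with the median ratio set to 0 and 1.12 against the median cluster. Over cluster 2 (0.99) it was 0.87 with the reduced totals. Against the median cluster, the cytotoxic median was 1.34 and the NK receptor median 1.16.

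UMIs per cell with a pseudocount of 0.02 UMIs, an alternative chosen after seeing the data like the minimum of 200 CPM, moved *Klf2* and all list medians down, as follows from the fewer UMIs per cell of cluster 9. It gave 1 gene higher and 3851 lower over the other cells, and 1 and 3541 over cluster 2. It turned *Klf2* to -0.27 and -0.44, and over the other cells the cytotoxic and NK receptor medians to -0.55 and -0.80. The *Klf2* and egress and the naive and memory medians were -1.46 and -1.57 there. Over cluster 2 the cytotoxic, *Klf2* and egress, naive and memory and NK receptor medians were -1.43, -1.09, -1.13 and -1.25.

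The most similar cluster of the other libraries was cluster 5 of 12W spleen by Pearson r, also at a minimum of 100 CPM, but cluster 3 of 12W spleen by Spearman rho (0.35). The measures disagreed on that cluster 3, whose Pearson r was -0.02. It held 2124 UMIs per cell, 0.42 of the mean of its library, and the part of RNA content in its rho was not tested. The effective number for *Trav* in place of *Trbv* was 31.6. Of 113 alternative values, 62 stayed within their counting interval or 1.5 times their count and 47 moved further. The remaining 4, all UMIs per cell, turned in sign from a value whose counting interval left out 0. Sign changes of values whose interval held 0 are not among these 4. For example, the *Klf2* and egress median over the other cells went from 0.03 to -0.16 with the reduced totals.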
